A study of Homo sapiens with 8 samples.

Results

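Polycomb and trithorax complexes are the chromatin machinery that keeps developmental genes off or on as cells choose a fate. The 38 genes described here encode subunits of Polycomb repressive complex 2 (PRC2), Polycomb repressive complex 1 (PRC1), the KMT2 methyltransferases of the trithorax group, the H3K27 demethylases and the ASXL proteins. They were chosen by gene symbol from the deposited table of 15811 genes, and 38 of the 38 were in it. Total RNA came from H9, a widely used line of human embryonic stem cells, as 4 libraries of unedited wild-type (WT) cells and 4 of a derived EXT1-/- line (CRISPR/Cas9). The EXT1 protein is a glycosyltransferase that extends heparan sulfate chains. Both groups had been kept in E8 medium on vitronectin, seeded with the ROCK inhibitor Y-27632, and taken after 28 h in RPMI-1640 with 6 µM CHIR-99021, a GSK3 inhibitor that drives stem cells towards mesendoderm. No uninduced library was analysed here, and 1 EXT1-/- line stands for the genotype. Whether replicates were grown separately is not said, so the spread behind each p-value is that between libraries and may be technical.

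PRC2 places methyl groups on lysine 27 of histone H3 (H3K27) through its catalytic subunit EZH2 or EZH1, held by EED and SUZ12. PRC1 places ubiquitin on histone H2A through RING1 or RNF2, each paired with a PCGF protein. In canonical PRC1 a CBX protein reads H3K27 methylation and a PHC protein lets complexes cluster, whereas variant PRC1 carries RYBP or YAF2 in place of CBX. Trithorax group enzymes of the KMT2 family methylate lysine 4 of histone H3 at promoters and enhancers and oppose Polycomb silencing, and KDM6A and KDM6B remove H3K27 methylation. In pluripotent cells many lineage genes are held silent but inducible by these activities.

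Values are the authors' normalised read counts, which summed to between 37737058 and 40017763 per library. EXT1 itself was lower in the libraries labelled EXT1-/- (1562 ± 144 in WT and 919.8 ± 41.6 in EXT1-/-, SD, n = 4 each), a log2 fold change of -0.76 (limma adjusted p 9.20e-05). A division into 2 sets of libraries, unnamed in the labels, ran across both genotypes. Mitochondrially encoded transcripts took 9.18 to 10.67% of counts in a high set (WT replicate 1, EXT1-/- replicates 1 and 4) and 5.30 to 5.43% in a low set of the other 5 libraries. Log2 fold changes (EXT1-/- over WT, on log2(value + 1)) are from limma over all 15811 genes, and a gene passed at a Benjamini-Hochberg adjusted p below 0.05. Values from the same fit with the library set as a term, or from the low set alone, are given where they differ in call. In bulk RNA, fewer cells of a type and less RNA per cell cannot be told apart. Listed markers of pluripotent cells were lower in 5 of 7 cases and higher in 1, SOX2 (summed counts of 170879 to 176308 in WT and 125511 to 138272 in EXT1-/- libraries), and listed mesendoderm markers in 4 of 5 (31086 to 35294 and 11256 to 17417). The 3 neuroectoderm markers in the table were higher (142 to 184 and 2816 to 5000), 3 of 4 amnion-like markers were higher and 1 lower (84 to 93 and 324 to 622). The WT mean was below 1 CPM, about the level at which genes were kept in the table, for 2 of these 3 neuroectoderm and 3 of these 4 amnion-like markers, so a row was more likely if they were higher in EXT1-/- libraries. The 3 fibroblast-like markers in the table were lower (8039 to 8838 and 4819 to 5430). PAX6, SOX1, ISL1, COL3A1, DCN and LUM had no row. The part of these markers in the results on the 38 genes was not tested.

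Of the 38 genes, 12 (31.6%) passed the test, 8 higher and 4 lower in EXT1-/- cells. Among all genes 32.0% passed, 15.2% higher and 16.8% lower, so the share of these genes that passed was close to that of all genes. Their changes were mostly small: the median absolute log2 fold change was 0.18, against 0.22 over all genes, and 35 of the 38 lay within 0.5 on the log2 scale. Only PHC1 both passed and differed by at least 2-fold, where 7.02% of all genes did. The median log2 fold change was 0.10, against 0.01 over all genes. Groups did not overlap for 11 of the 38 (28.9%), against 33.5% of all genes. With the library set as a term, 19 of the 38 passed (14 higher, 5 lower; of all genes 51.8% passed, 26.2% higher and 25.6% lower), and within the low set 16 passed (11 higher, 5 lower; of all genes 45.0% passed, 20.9% higher and 24.1% lower). With gene length and GC trends removed 16 passed (10 higher, 6 lower; of all genes 36.8% passed, 18.6% higher and 18.3% lower). All 12 genes passed in the same direction with the set term. The authors' deposited table marks 9 of the 38 at an FDR of 0.05, 5 higher and 4 lower, against 26.2% of all genes in either direction, 12.6% higher and 13.6% lower.

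**Figure D1:**
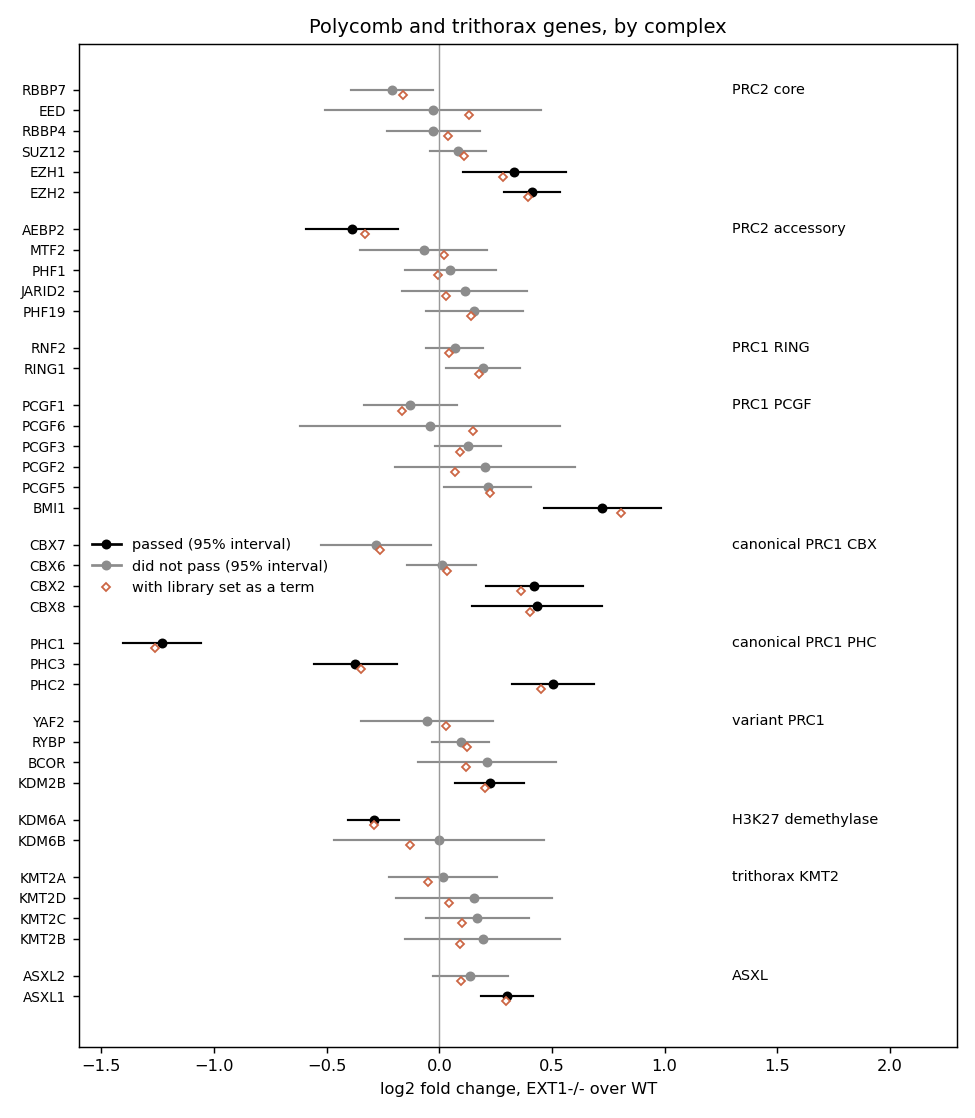
Log2 fold change (EXT1-/- over WT, horizontal axis) of each of the 38 genes, grouped by complex. Circles with lines are the estimate and 95% interval of the fit on all 8 libraries (black where the gene passed), and open diamonds the estimate with the library set as a term. PHC1 sits apart at -1.23, and the other genes lie between -0.39 and 0.72.

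The clearest change was in the PHC genes, which encode the polyhomeotic subunits of canonical PRC1. For this reason sequences before RefSeq starts of PHC1 and PHC2 are shown, with that before a start of BMI1, which rose most. Each run gives the 250 bases before a start, 5′ to 3′, on GRCh38.p14 (RefSeq), with capitals at matches, on either strand, to the GC box GGGCGG or the ETS core CCGGAAG. PHC1, PHC2 and BMI1 each have a pair of starts in the RefSeq table. Both are shown for PHC1, and only the outermost for PHC2 and BMI1.
PHC1, outer start, chr12:8913593-8913842, plus strand: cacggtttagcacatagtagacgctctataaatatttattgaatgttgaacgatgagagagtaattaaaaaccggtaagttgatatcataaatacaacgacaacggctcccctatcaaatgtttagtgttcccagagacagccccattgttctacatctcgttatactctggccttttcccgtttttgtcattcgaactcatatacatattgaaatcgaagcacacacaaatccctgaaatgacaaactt
PHC1, inner start, chr12:8914259-8914508, plus strand: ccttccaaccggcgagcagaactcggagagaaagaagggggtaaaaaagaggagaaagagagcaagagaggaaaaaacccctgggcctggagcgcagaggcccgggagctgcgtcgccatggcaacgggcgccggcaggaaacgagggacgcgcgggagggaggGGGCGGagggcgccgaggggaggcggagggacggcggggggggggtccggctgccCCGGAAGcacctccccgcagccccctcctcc
PHC2, outer start, chr1:33431096-33431345, minus strand: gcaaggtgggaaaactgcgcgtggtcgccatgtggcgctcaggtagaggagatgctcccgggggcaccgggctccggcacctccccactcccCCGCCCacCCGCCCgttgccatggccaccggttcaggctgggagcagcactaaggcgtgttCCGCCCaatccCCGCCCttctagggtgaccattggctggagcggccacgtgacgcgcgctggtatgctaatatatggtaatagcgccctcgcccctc
BMI1, outer start, chr10:22320849-22321098, plus strand: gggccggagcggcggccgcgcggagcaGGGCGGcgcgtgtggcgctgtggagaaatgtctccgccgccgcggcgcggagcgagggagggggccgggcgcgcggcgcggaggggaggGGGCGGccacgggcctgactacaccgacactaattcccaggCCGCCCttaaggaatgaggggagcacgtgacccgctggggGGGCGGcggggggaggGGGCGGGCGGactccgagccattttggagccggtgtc
The outer PHC1 window was 37.6% G and C and held no match to either motif, while its inner window was 70.4% G and C with 1 GC box and 1 ETS core. The outer PHC2 window was 66.8% G and C with 4 GC boxes, and the outer BMI1 window 76.8% with 6, overlapping matches counted. Neither held an ETS core. Of the windows not shown, the inner one of PHC2 was 80.4% G and C with 6 GC boxes and 1 ETS core. The inner one of BMI1 was 91.6% with 5 GC boxes, and that of PHC3 56.8% with 2. Windows were found for 36 of the 38 genes, and not for CBX2 and CBX8. Taking for each gene the start nearest the 5′ end of its GENCODE model, GC boxes were in 25 of 36 (69.4%), against 42.6% of 35116 windows in the table. The windows of the 36 were also richer in G and C (median 70.2%, against 58% over all windows) and in CpG (median observed over expected 0.947, against 0.558). All windows were not limited to 1 start per gene or to genes with values here, so they are not a like-for-like background. The ETS core was in 3, ASXL1, ASXL2 and KDM2B (8.33%, against 8.52%). The E2F motif GGCGGGAA was in 1 window, that of RNF2 (2.78%, against 2.72%). Neither the POU octamer ATGCAAAT (1.63% of all windows) nor the TCF/LEF core CTTTGAT (2.26%) was in any of the 36. These counts describe letters in a fixed window, not binding.

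PHC1 (ENSG00000111752, chr12:8913896-8941467, plus strand, GRCh38, GENCODE 29) had 10154, 8632, 8087 and 8174 normalised counts in WT libraries and 3780, 3621, 3821 and 3658 in EXT1-/- libraries, each in the order of replicates 1 to 4. Every EXT1-/- library was below every WT library, and the EXT1-/- values were tightly grouped. The means were 8762 ± 958 and 3720 ± 95.6 (SD, n = 4 each), a log2 fold change of -1.23 ± 0.08 (SE; adjusted p 7.30e-06, limma), which is a level of 0.426 of WT. PHC1P1, a pseudogene of PHC1, was also lower (579.8 ± 176 and 269.8 ± 68.7, log2 fold change -1.10, adjusted p 0.00879, limma), and reads of near-identical copies may be split between them.

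PHC2, a second polyhomeotic gene, moved the other way. It had 1238, 1069, 1128 and 1107 normalised counts in WT and 1758, 1472, 1496 and 1723 in EXT1-/- replicates 1 to 4. The groups did not overlap, and the log2 fold change was 0.50 ± 0.08 (SE; adjusted p 0.00153, limma). PHC3, the third of the family, had 1095, 1076, 1002 and 1106 counts in WT and 793, 935, 850 and 737 in EXT1-/- replicates, again without overlap. It fell by 0.37 ± 0.08 on the log2 scale (adjusted p 0.00768, limma).

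Expressed per kilobase of exon, the summed PHC level went from 1730 ± 171 to 983.9 ± 31.1 (SD, n = 4 each). PHC1 made up 83.1 ± 0.94% of that sum in WT and 62.1 ± 1.69% in EXT1-/- libraries, and PHC2 13.2 ± 0.73% and 32.9 ± 2.20%. PHC1 therefore remained the most abundant of the family in both groups. Within a library the log2 ratio of PHC1 to PHC2 counts was 2.94 ± 0.10 in WT and 1.21 ± 0.13 in EXT1-/- (SD, n = 4 each), a difference of -1.73 ± 0.08 (SE) that does not depend on library scaling. The corresponding difference for PHC1 to PHC3 was -0.86 ± 0.10. Each gave the smallest p the design allows in a two-sided exact permutation test over 70 divisions (p = 0.0286). That is 0.129 after adjustment over the 18 pairs of related genes compared, and no pair passed. A pair could pass only if most of the 18 reached the smallest p together, so the adjusted value says little about any single pair.

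**Figure D2:**
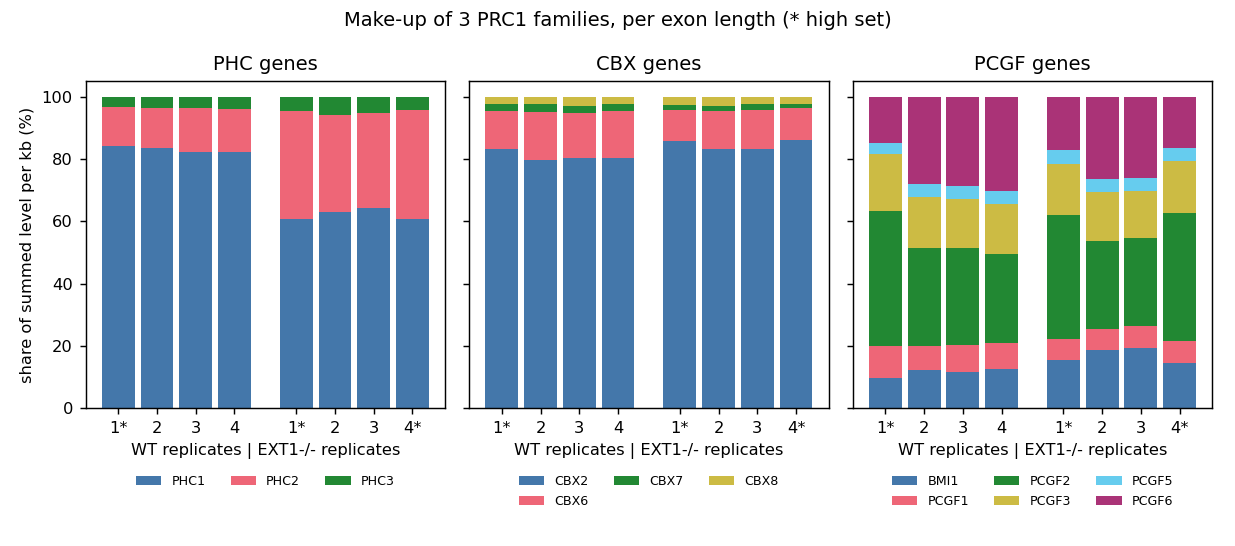
Share of each gene in the summed level per kilobase of exon of the PHC, CBX and PCGF genes (vertical axis, %), by library, WT on the left and EXT1-/- on the right of each panel. Asterisks mark the high set. The PHC1 share is 82.3 to 84.2% in WT and 60.6 to 64.1% in EXT1-/- libraries, while in the PCGF panel PCGF6 is smaller and PCGF2 larger in the asterisked libraries of both groups.

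PHC1 lies 1126102 bases from the start of NANOG, which encodes a core pluripotency factor. The stretch from NANOG to PHC1, chosen after the values were seen, holds 8 protein-coding genes of the table, NANOG and PHC1 among them. Of these 5 were lower, both ends included, none higher and 3 did not pass. Among all genes 16.8% were lower and 15.2% higher. Both ends were known to be lower when the stretch was chosen, so the count is no test of a shared change. NANOG had a log2 fold change of -0.94, the glucose transporter genes SLC2A14 and SLC2A3 of -1.10 and -1.23, and A2ML1, a protease inhibitor gene, of -1.17. FOXJ2, NECAP1 and RIMKLB between them had 0.03, -0.08 and 0.01. SLC2A3 and SLC2A14 are close copies, so their counts are uncertain.

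Among the chromodomain CBX genes of canonical PRC1, CBX2 and CBX8 were higher and CBX6 and CBX7 did not pass. CBX2 had 4877, 4311, 4388 and 3957 normalised counts in WT and 6175, 5491, 5184 and 6693 in EXT1-/- replicates 1 to 4, with no overlap (log2 fold change 0.42 ± 0.09, adjusted p 0.00913, limma). CBX8 was much lower in level, at 102, 100, 115 and 89 in WT and 150, 144, 113 and 143 in EXT1-/- libraries, and the groups overlapped through EXT1-/- replicate 3. Its log2 fold change was 0.43 ± 0.13 (adjusted p 0.0301, limma), a call lost within the low set (0.34, adjusted p 0.144) and on leaving out WT replicate 2 or 4 or EXT1-/- replicate 1, 2 or 4. CBX2, on the plus strand, and CBX8, on the minus strand, are neighbours on chromosome 17, with 4149 bases between their 3′ ends. CBX7, the form typical of undifferentiated stem cells, had 166, 175, 176 and 142 counts in WT and 136, 138, 147 and 120 in EXT1-/- libraries (log2 fold change -0.28, 95% interval -0.52 to -0.04, adjusted p 0.0752, limma). It passed with gene length and GC trends removed (-0.38, adjusted p 0.0442) and without WT replicate 4. Per kilobase, CBX2 made up 80.9 ± 1.503% of these 4 genes in WT and 84.6 ± 1.60% in EXT1-/- libraries, and CBX7 2.32 ± 0.16% and 1.503 ± 0.26%. The log2 ratio of CBX7 to CBX2 was -4.73 ± 0.12 in WT and -5.43 ± 0.28 in EXT1-/- libraries, without overlap (difference -0.70 ± 0.15 SE; exact permutation p = 0.0286, adjusted 0.129). CBX6 had a log2 fold change of 0.01, with a 95% interval of -0.14 to 0.16.

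BMI1, the PCGF subunit first known as an oncogene and a repressor of the CDKN2A locus, showed the largest rise of the 38. It had 680, 864, 848 and 908 normalised counts in WT and 1234, 1462, 1541 and 1212 in EXT1-/- replicates 1 to 4. The lowest EXT1-/- library was above the highest WT library (log2 fold change 0.72 ± 0.11, adjusted p 0.00148, limma, or 1.65-fold; 0.80 with the library set as a term). BMI1 shares exons with a read-through transcript of its upstream neighbour, listed as COMMD3-BMI1, whose log2 fold change of 1.05 did not pass (96.0 ± 57.7 and 188.0 ± 74.8, adjusted p 0.0828, limma). It passed with the library set as a term (0.77, adjusted p 0.0155) and in the low set alone (0.97, adjusted p 0.0232), and reads may be split between these entries. COMMD3 itself had a log2 fold change of -0.02 (adjusted p 0.958). The other PCGF genes did not pass: PCGF1, PCGF2, PCGF3, PCGF5 and PCGF6 had log2 fold changes of -0.13, 0.20, 0.13, 0.21 and -0.04. PCGF3 and PCGF5, which define variant complexes, passed with the library set as a term (0.09 and 0.23, adjusted p 0.0433 and 0.0375), and PCGF5 also with length and GC trends removed (adjusted p 0.0337). PCGF2, also called MEL18, had the highest mean level per kilobase in both groups, at 558.7 and 648.7, followed by PCGF6 at 424.1 and 404.3. PCGF2 was above PCGF6 in 7 of 8 libraries and below it in WT replicate 4. In WT replicate 1 and EXT1-/- replicate 4, both of the high set, PCGF6 was also below PCGF3. Also per kilobase, BMI1 made up 11.6 ± 1.28% of the summed PCGF level in WT and 16.9 ± 2.40% in EXT1-/- libraries.

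The catalytic RING subunits showed no change past the threshold. RNF2, also called RING1B, had a log2 fold change of 0.07 (95% interval -0.06 to 0.19). RING1 had 525, 529, 493 and 536 counts in WT and 653, 540, 612 and 582 in EXT1-/- libraries. Those groups did not overlap, but the adjusted p of 0.0733 (limma; log2 fold change 0.19) missed the threshold, and RING1 passed with the library set as a term (adjusted p 0.0459) and without EXT1-/- replicate 2. Of the variant PRC1 genes, KDM2B, which binds unmethylated CpG islands and brings PRC1 to them, rose by 0.22 ± 0.07 on the log2 scale (adjusted p 0.0322, limma). Its values were 2620, 2547, 2583 and 2368 in WT and 2819, 3007, 2748 and 3251 in EXT1-/- libraries, without overlap. The call was lost with gene length and GC trends removed (0.12, adjusted p 0.185) and on leaving out WT replicate 2, 3 or 4 or EXT1-/- replicate 2 or 4. RYBP and YAF2, alternative partners of RING, had 0.09 and -0.05, and BCOR, the scaffold of the PCGF1 complex, 0.21 with a 95% interval of -0.09 to 0.52. RYBP passed with the library set as a term (0.12, adjusted p 0.00767), in the low set alone (0.13, adjusted p 0.0197) and with length and GC trends removed (adjusted p 0.0231), and BCOR within the low set (0.18, adjusted p 0.0219) and without WT replicate 1.

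In PRC2 both alternative catalytic subunits were higher. EZH2 had 2512, 2332, 2289 and 2498 normalised counts in WT and 3353, 3149, 3101 and 3208 in EXT1-/- replicates 1 to 4, with no overlap (log2 fold change 0.41 ± 0.05, adjusted p 0.000527, limma). EZH1, the form of less dividing cells, had 850, 661, 658 and 610 in WT and 869, 837, 865 and 903 in EXT1-/- libraries, and WT replicate 1 lay within the EXT1-/- range. Its log2 fold change was 0.33 ± 0.10 (adjusted p 0.0328, limma). That call was lost with upper quartile scaling and on leaving out any library other than WT replicate 1. Per kilobase EZH2 made up 84.3 ± 1.77% of the pair in WT and 85.1 ± 0.50% in EXT1-/- libraries, and the log2 ratio of EZH2 to EZH1 differed by 0.08 ± 0.10 (SE) between groups. EED and SUZ12, the obligate partners, had log2 fold changes of -0.03 (95% interval -0.51 to 0.45) and 0.08 (-0.04 to 0.21). With the library set as a term SUZ12 passed as higher (0.11, adjusted p 0.0283), as it did with length and GC trends removed (adjusted p 0.0296), and EED passed with the opposite sign (0.13, adjusted p 0.0327). SUZ12 has a partial copy, SUZ12P1, that was higher in EXT1-/- cells (0.24, adjusted p 0.0172, limma). EZH2 is a gene of dividing cells, and of 20 listed proliferation genes 6 were higher and none lower (15.2% and 16.8% of all genes), with a median of 0.09. They included RRM2 at 0.46 and MCM2 at 0.36. The part of cell division in the EZH2 difference was not tested.

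The histone-binding subunits RBBP4 and RBBP7 are also part of other chromatin complexes. RBBP7 had 10590, 12552, 12893 and 12512 counts in WT and 10166, 11192, 11002 and 9530 in EXT1-/- libraries. Its log2 fold change of -0.21 missed the threshold (adjusted p 0.0747, limma) and passed with the library set as a term (-0.16, adjusted p 0.00307), in the low set alone (-0.19, adjusted p 0.00268), with length and GC trends removed (adjusted p 0.0460), with upper quartile scaling and without WT replicate 1. RBBP4 had -0.03, and the log2 ratio of RBBP7 to RBBP4 differed by -0.19 ± 0.04 (SE) without overlap (exact permutation p = 0.0286, adjusted 0.129). Of the accessory subunits, AEBP2, a zinc finger protein that with JARID2 forms the PRC2.2 version, was lower. Its values were 1893, 2283, 2112 and 2145 in WT and 1472, 1838, 1674 and 1474 in EXT1-/- libraries, without overlap (log2 fold change -0.39 ± 0.09, adjusted p 0.0109, limma). JARID2 had 0.11, and the Polycomb-like genes MTF2, PHF19 and PHF1 of the PRC2.1 version had -0.07, 0.16 and 0.05. None of these 4 passed. MTF2 made up 68.3 ± 3.92% of the summed Polycomb-like level per kilobase in WT and 66.1 ± 5.15% in EXT1-/- libraries.

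Of the 2 H3K27 demethylase genes, KDM6A was lower and KDM6B did not pass. KDM6A, also called UTX, had 3030, 3210, 3013 and 3288 normalised counts in WT and 2520, 2529, 2551 and 2635 in EXT1-/- replicates 1 to 4, with no overlap (log2 fold change -0.29 ± 0.05, adjusted p 0.00238, limma). KDM6B, an inducible demethylase, had 613, 449, 587 and 380 in WT and 586, 421, 387 and 641 in EXT1-/- libraries, a log2 fold change of -0.00 with a 95% interval of -0.47 to 0.47. Differences of up to those bounds could not be told from none. None of the trithorax group genes KMT2A, KMT2B, KMT2C and KMT2D passed with all 8 libraries, with log2 fold changes of 0.02, 0.19, 0.17 and 0.15. KMT2C, which methylates H3K4 at enhancers as KMT2D does, passed within the low set (0.15, adjusted p 0.0379) and without WT replicate 1. The widest of the 4 intervals, that of KMT2D, ran from -0.19 to 0.50. ASXL1, a subunit of the deubiquitinase that removes the PRC1 mark from H2A, had 1922, 1811, 1792 and 1887 counts in WT and 2238, 2385, 2231 and 2276 in EXT1-/- libraries, without overlap, and rose by 0.30 ± 0.05 on the log2 scale (adjusted p 0.00205, limma). ASXL2 had 0.14, and passed within the low set (0.15, adjusted p 0.0141) and without WT replicate 1.

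**Figure D3:**
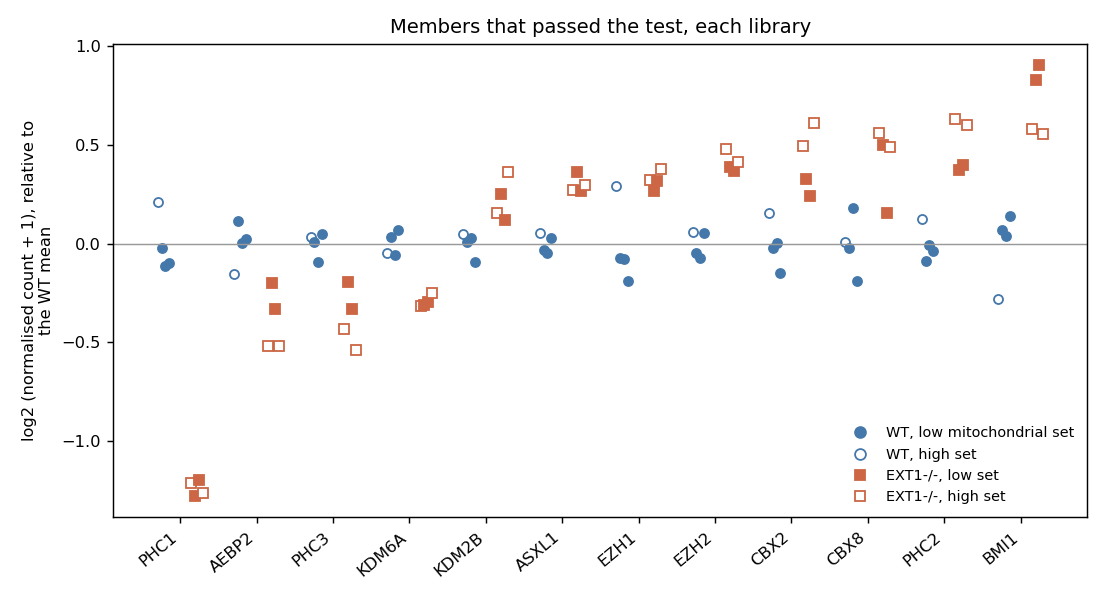
Values of the 12 genes that passed, each library drawn as log2(normalised count + 1) relative to the WT mean (vertical axis). Circles are WT and squares EXT1-/- libraries, and open symbols are the high set. All squares lie below all circles for PHC1, AEBP2, PHC3 and KDM6A and above them for EZH2, ASXL1, KDM2B, CBX2, PHC2 and BMI1, while the groups overlap for EZH1 and CBX8.

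Several of the genes that did not pass differed more between the library sets than between genotypes. In the model with both terms, 24 of the 38 (63.2%) differed between the high and the low set, 15 higher and 9 lower in the high set, against 48.5% of all genes (24.1% higher and 24.4% lower). EED had 698 counts in the high-set WT library and 1117, 1090 and 1180 in the others, and 776 and 809 in the high-set EXT1-/- libraries against 1190 and 1240. PCGF6, of a variant PRC1 that works in germ cells and stem cells, had 730 against 1387, 1466 and 1520 in WT, and 970 and 970 against 1459 and 1466 in EXT1-/- libraries. PCGF2 went the other way, with 2490 against 1828, 1847 and 1682 in WT and 2612 and 2829 against 1831 and 1839 in EXT1-/- libraries. High-minus-low differences were -0.65 for EED, -0.76 for PCGF6, 0.53 for PCGF2 and 0.51 for KDM6B on the log2 scale. The sign was the same in both genotypes for 32 of the 38. Over the 38 genes, in the same libraries, this difference had a Pearson r of 0.64 with transcript GC content and 0.16 with the log10 of exon length, given as a description. PHC1 had a high-minus-low difference of 0.12, and the log2 fold change between genotypes was -1.16 in the low-set libraries and -1.45 in those of the high set.

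**Figure D4:**
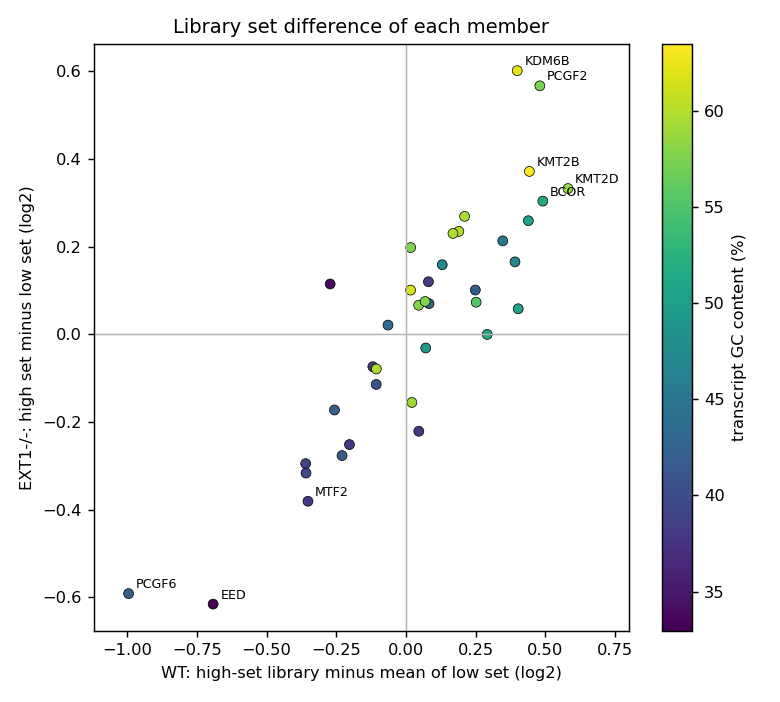
High-set minus low-set difference of each of the 38 genes on the log2 scale, in WT (horizontal axis, 1 library against 3) and in EXT1-/- libraries (vertical axis, 2 against 2). Colour gives the GC content of the longest transcript (%), and points in the lower left and upper right quadrants have the same sign in both genotypes, 32 of 38.

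Other genes of the same complexes, with some related ones, were read from lists that name textbook partners. Among all genes, 15.2% were higher and 16.8% lower. The 5 further PRC2 genes gave none past the threshold with all libraries, and 1 lower without WT replicate 1 or EXT1-/- replicate 2. Of 25 further PRC1 genes 6 were higher and 2 lower (median -0.02). The higher count was 3 without WT replicate 3 or 4, and the lower count 1 without any WT replicate or EXT1-/- replicate 2 or 3. AUTS2, which turns the PCGF3 and PCGF5 complexes towards activation, had a mean of 1716 ± 510 in WT and 5446 ± 1122 in EXT1-/- libraries (SD, n = 4 each) and rose by 1.68 on the log2 scale (adjusted p 0.000384, limma). SCML1 and BCORL1, a relative of BCOR, were higher by 0.75 and 0.79, and L3MBTL3, a reader of methylated histones, fell by 0.48 on the log2 scale. In the list of deubiquitinase partners 1 of 10 was higher and 2 lower (median 0.07), and 4 were higher without WT replicate 1 and 2 without EXT1-/- replicate 3. ASXL3, the third ASXL gene, had 36.2 ± 5.97 and 174.5 ± 22.01 counts and rose by 2.24 (adjusted p 1.16e-05), whereas KDM1B and FOXK1 fell by 0.76 and 0.68. The WT mean of ASXL3 was below 1 CPM, about the level at which genes were kept in the table. Of 15 other genes listed with the KMT2 and SETD1 complexes, not all of them subunits, 4 were higher and none lower (median 0.14). The higher count was 7 without WT replicate 1 and 2 without WT replicate 2, 3 or 4 or EXT1-/- replicate 4. Those past the threshold with all libraries were SETD1B (0.65), PAGR1 (0.41), CXXC1 (0.33) and WDR5 (0.16). Among 26 subunits of BAF, the SWI/SNF remodeller that also belongs to the trithorax group, 4 were higher and 1 lower (median 0.09). The higher count was 9 without WT replicate 1 and 2 without WT replicate 2, 3 or 4 or EXT1-/- replicate 1 or 4, and the lower count 2 without WT replicate 1 or EXT1-/- replicate 1, 2 or 3. The lower one with all libraries was SMARCA2, an ATPase subunit, from 3998 ± 197 to 2264 ± 198 (-0.82, adjusted p 5.57e-05), while DPF1, PBRM1 and BCL7A were higher by 0.75, 0.28 and 0.25. With the library set as a term the counts were 1 higher and 1 lower for PRC2, 8 and 6 for PRC1, 5 and 3 for the deubiquitinase, 8 and 2 for KMT2 and SETD1, 10 and 6 for BAF, and 12 and 0 for proliferation genes, in a fit where 26.2% of all genes were higher and 25.6% lower.

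Developmental genes commonly described as Polycomb-bound in human stem cells were looked at last. No binding or histone mark was measured. Of 109 listed genes 33 were in the table, 27 of them higher, 2 lower and 4 not past the threshold, beside 15.2% higher and 16.8% lower among all genes. Their median log2 fold change was 2.27, and 1.12 over the 18 of them with a WT mean of at least 1 CPM. The other 76 had no row. The table held genes with about 1 CPM in at least 2 libraries, so a gene near or below that level in WT was more likely to have a row if it was higher in EXT1-/- libraries. The WT mean was below 1 CPM for 15 of the 33, and those 15 were among the 27. Of the 18 with a WT mean of at least 1 CPM, 12 were higher, 2 lower and 4 did not pass. MEIS2, PAX3, ZIC1 and ZIC4, transcription factor genes of neural and mesodermal precursors, were higher by 4.499, 3.37, 4.46 and 3.24. Of these, ZIC4 had a WT mean below 1 CPM (25.2 normalised counts). FOXA2, a factor of endoderm, had 105.5 ± 20.2 in WT and 34.5 ± 12.5 in EXT1-/- libraries and fell by 1.62 on the log2 scale (adjusted p 0.00105, limma).

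**Figure D5:**
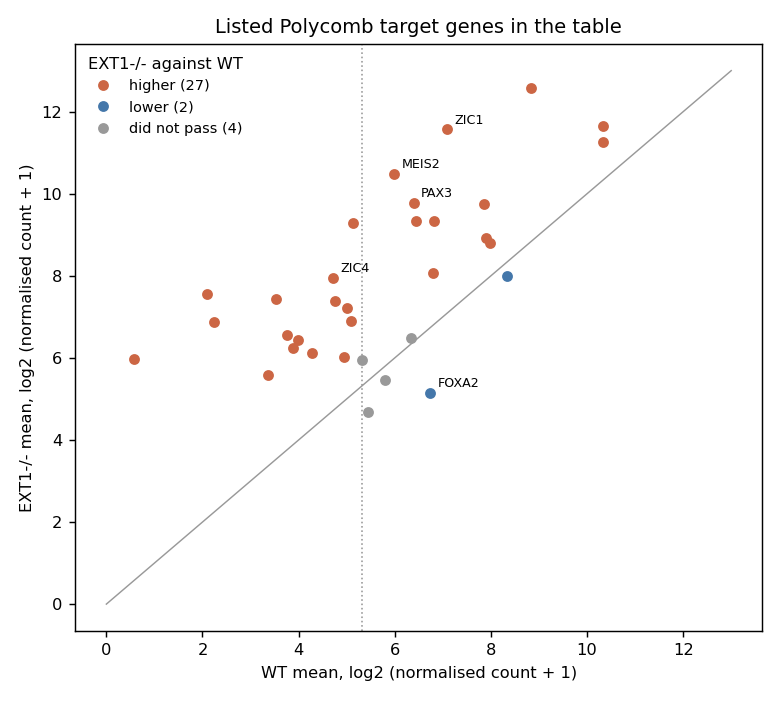
Mean of each listed Polycomb target gene in WT (horizontal axis) and EXT1-/- libraries (vertical axis), both as log2(normalised count + 1), with the line of equal values. The dotted line marks 1 CPM in WT, about the level at which genes were kept in the table, and 15 of the 27 higher genes lie left of it.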

How the data were processed

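RNA of 8 libraries was read from 1 deposited table. STAR, RSEM and edgeR were used on GRCh38.p10, per the submitters' processing notes; versions are not given in the sources used here. The library kit keeps strand, per the labels' protocols. The authors deposited a signal per library, whole numbers called normalised read counts here: scaled by an own trimmed mean of M values, all 8 libraries had effective sizes of 38891526 to 38902503, so they are not raw counts, raw depth is unknown and no count model was run. Beside it the authors deposited, for each gene, a p-value, an FDR, a test score and log2 values (fold change and mean CPM). The lowest second-highest value of a gene was 0.977 CPM (38.9 normalised counts per CPM).

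Values were tested as log2(value + 1) with limma 3.58.1 in R 4.3.3 (intensity trend, genotype as the only term, 15811 genes, mean of at least 1 in either group, which removed none). The fit was tested on simulated data. Library sets were split at the largest gap in mitochondrial share. Coordinates and union exon lengths were from GENCODE 29 (15777 genes matched by ID, 99.8%). TBXT is listed under an older symbol and was matched through a table of gene names. Exact permutation tests were two-sided. All 38 genes were named, with EXT1, the listed markers and up to 4 genes per list by adjusted p (4 in each direction for target genes). One gene that this rule selects is not reported here. The genes and lists were chosen with earlier results of these data known. Python 3.11.15, numpy 2.4.6, pandas 2.3.3 and matplotlib 3.10.9 were used. Alternatives covered scaling, pseudocount, filters, the variance model (limma-voom, robust moderation, no trend), a replicate block, library sets, length and GC trends, and each library left out.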

Additional observations from a re-analysis of the deposited data

Results flagged for a closer look

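In 7 of 76 sets of 4 values (38 genes in each group), 1 library stood far from the other 3, where chance gives about 1 in 20, or 3.8. All 7 were WT replicate 1, the only WT library of the high set: RBBP4 (12839), RBBP7 (10590), MTF2 (3304) and PCGF6 (730) were low there, and PCGF3 (2184), KMT2A (4887) and KMT2C (2066) were high. None of these 7 genes was among the 12 that passed. Their part in the results was not tested beyond the fits without that library.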

How the results depend on the processing

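PHC1 was called lower under each of the 23 alternatives run, with log2 fold changes of -1.45 to -1.16. AEBP2, ASXL1, BMI1, CBX2, EZH2, KDM6A, PHC2 and PHC3 were called in the same direction under all but the high set alone, which holds 1 WT library and leaves few degrees of freedom. CBX8, EZH1 and KDM2B lost their call under 8, 9 and 8 alternatives, and no called gene reversed. CBX7 and CBX8 have no value under the stricter filter on low values, which leaves them out. EED, not called with all libraries, was called higher with the library set as a term (0.13). That term moved the genes called from 5063 to 8195 (4142 higher, 4053 lower) and those of the 38 from 12 to 19 (14 higher). The high set alone gave 122 genes (71 higher, 51 lower), 1 of the 38 (0 higher, 1 lower), and EXT1 at -0.93 without a call; its lone WT library is assumed to vary like the others. Leaving out 1 library gave 3721 to 6041 genes (1666 to 2893 higher, 2055 to 3148 lower) and 9 to 16 of the 38 (5 to 11 higher, 4 to 5 lower; 5 higher without WT replicate 2, WT replicate 4 or EXT1-/- replicate 4). EXT1 ranged from -0.79 to -0.70. With the replicate block 4934 genes and 10 of the 38 (6 higher, 4 lower) were called, CBX8 and KDM2B not among them, and EXT1 was at -0.76. The labels do not say whether replicate numbers pair the libraries. Correlations of same-numbered deviations were 0.67, 0.16, 0.24 and -0.52, and not every library correlated best with its own number. WT replicate 1 gave 0.67 with EXT1-/- replicate 1 and 0.60 with EXT1-/- replicate 4, all of the high set. The correlations thus mix in the library sets and cannot show whether libraries were paired. No related pair passed adjustment (0 in each setting), which shows no stability. Even with all 8 libraries a pair could pass only if most of the pairs reached the smallest p, and the other settings leave no more divisions. Without raw depth, counting error per gene is unknown.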
